A study of Mus musculus with 4 samples.

Results

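Adenoma cells that contained transcripts of Msx1 were compared with adenoma cells of the same libraries in which none was found. The cells were chosen by a fixed rule from 4 droplet-based libraries made from adenomas of the mouse small intestine. A cell barcode was kept if it held at least 10000 unique molecular identifiers (UMIs, the counted molecules), at least 200 genes and at most 20% mitochondrial UMIs. It was gated as an adenoma cell if at least 2 of the 3 genes Prox1, Notum and Nkd1 were detected and their UMIs summed to at least 3. Gated cells with 2 or more Msx1 UMIs were Msx1-positive, gated cells with 0 were Msx1-negative, and cells with exactly 1 were in neither state. Of 7996 barcodes that passed the limits, 3245 were gated, and of these 1902 were Msx1-positive, 444 had 1 Msx1 UMI and 899 were Msx1-negative. The 2801 cells of both states are described here.

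The libraries came from male C57BL/6 mice, per the labels, aged 11 weeks. The 2 ApcMin libraries have the genotype ApcMin/+;Lef1 +/+, and the 2 VApcMinL libraries ApcMin/+;Lef1 fl/fl; Villin-Cre. The germline mutation of 1 Apc allele is thus common to all libraries, and in VApcMinL the Villin promoter restricts Cre, and so the intended loss of the Wnt-pathway transcription factor Lef1, to intestinal epithelium. The kit was 10x version 2 for both replicates 1 and version 3 for both replicates 2. Each library pooled 3 to 10 tumors that were dissociated without a sort, so Msx1 state and tumor or mouse of origin cannot be told apart within a library.

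Msx1 encodes a homeobox transcription factor that is induced by BMP and Wnt signals in many developing tissues. BMP ligands act through SMAD proteins, which turn on Id genes and the inhibitory Smad6 and Smad7. The Wnt pathway acts through beta-catenin and TCF/LEF factors and is active without restraint in cells that have lost Apc. In the normal small intestine, Wnt signals maintain stem cells and Paneth cells at the crypt base, while genes of stomach mucus and gland cells are largely silent.

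Some values went against the labels. In Msx1-positive cells Lef1 was at 8.69 and 40.3 CPM (the gene's UMIs per 1000000 UMIs of those cells) in ApcMin replicates 1 and 2, and at 51.9 and 23.1 CPM in VApcMinL replicates 1 and 2. In Msx1-negative cells the same libraries held 10.5, 26.0, 20.7 and 18.6 CPM. Lef1 was therefore not lower in both libraries labelled VApcMinL than in the ApcMin libraries, although UMIs from the end of a transcript do not check an excised exon. Xist, transcribed from the inactive X chromosome of female cells, was at 0.13 and 0.20 CPM in the positive cells of ApcMin replicates 1 and 2 and at 1182 and 296 CPM in those of VApcMinL replicates 1 and 2. All 64 positive and 326 negative cells of VApcMinL replicate 1 held Xist and no Y-linked UMI. VApcMinL replicate 2 was mixed, with 341 Xist-only and 856 Y-only cells among 1461 positive cells and 87 and 141 among 277 negative cells, while 185 positive (12.7%) and 21 negative (7.58%) cells held both. No barcode was shared by the gated cells of any pair of libraries, and total UMIs per library ranged from 44660305 to 128247396.

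Msx1 (ENSMUSG00000048450, GRCm38 chr5:37820485-37824583, minus strand) was found in very different shares of the gated cells. Msx1-positive cells were 280 of 444 gated cells (63.1%) in ApcMin replicate 1, 64 of 487 (13.1%) in VApcMinL replicate 1, 97 of 342 (28.4%) in ApcMin replicate 2 and 1461 of 1972 (74.1%) in VApcMinL replicate 2. Each genotype and each kit thus held 1 library with a high and 1 with a low share. VApcMinL replicate 2 supplied most of the positive cells, and results below are taken within each library so that it does not outweigh the others. The median positive cell held 5, 3, 4 and 7 Msx1 UMIs in that order of libraries, and the highest held 35, 13, 24 and 73.

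**Figure D1:**
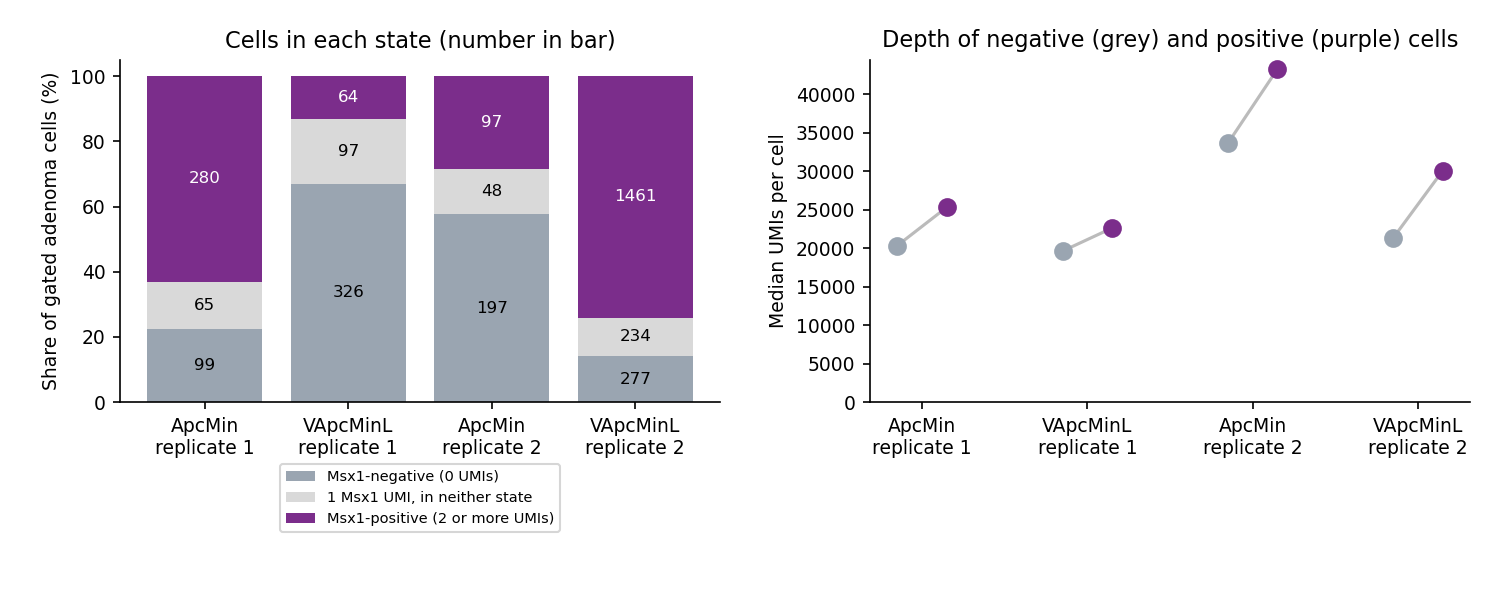
The bars at left give the share (%) of gated adenoma cells that were Msx1-negative, held 1 Msx1 UMI or were Msx1-positive in each library, with the number of cells in the bar. The points at right give the median UMIs per cell of negative (grey) and positive (purple) cells, which was higher in positive cells in all 4 libraries.

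Values on either side of the limit are given as a description, since the limit itself chose them. The 54, 24, 27 and 190 cells with exactly 2 Msx1 UMIs had medians of 22066.5, 22620.5, 35199 and 24839.5 UMIs. The 65, 97, 48 and 234 cells with 1 Msx1 UMI had medians of 21011, 19614, 38391 and 23279 UMIs. Neither kind was the deeper in all libraries. Gkn3, described below, was at 481, 467, 969 and 890 CPM in cells with exactly 2 and at 461, 2073, 1050 and 868 CPM in cells with 1 Msx1 UMI.

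Outside the gate, 2 or more Msx1 UMIs were rarer. Among barcodes with Epcam and no gate gene, the share was 12 of 567 (2.12%) in ApcMin replicate 1, 1 of 710 (0.141%) in VApcMinL replicate 1 and 40 of 989 (4.04%) in VApcMinL replicate 2. In ApcMin replicate 2 it was 0 of 1020, which allows a share of up to 0.294%. The median depths of these barcodes, in the order just given, were 15834, 15546, 18933 and 28877 UMIs, below those of gated cells, and intervals and limits of such shares cover counting error only. The libraries with the higher shares inside the gate were also those with the higher shares outside it. In barcodes of at most 100 UMIs, which hold free RNA, Msx1 was at 51.5 CPM in ApcMin replicate 1, 12.8 CPM in VApcMinL replicate 1, 42.1 CPM in ApcMin replicate 2 and 106 CPM in VApcMinL replicate 2.

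The states differed in depth. In the order of libraries above, Msx1-positive cells had medians of 25331, 22620.5, 43283 and 30074 UMIs and negative cells 20333, 19621.5, 33634 and 21319. A deeper cell is more likely to show a UMI of any gene. The part of depth in the contrast was therefore examined with thinned and depth-matched cells. For depth matching, each cell of the scarcer state was paired with a cell of similar depth. This cut positive cells from 280 to 99 in ApcMin replicate 1 and from 1461 to 277 in VApcMinL replicate 2. In VApcMinL replicate 1 and ApcMin replicate 2 it cut negative cells. For thinned fits, the gate and states were set anew after thinning to 10000 UMIs. This left 114, 30, 36 and 607 positive and 87, 304, 190 and 307 negative cells. The share with a UMI of the proliferation genes Mki67 or Top2a was 76.8%, 65.6%, 79.4% and 82.7% in positive and 63.6%, 58.0%, 68.5% and 62.8% in negative cells, before any thinning. The library medians of mitochondrial UMIs lay between 3.61% and 5.78% in positive and between 3.62% and 6.18% in negative cells. Gate genes were higher per 10000 UMIs in positive cells, with median sums of 3.16, 19.3, 11.7 and 3.52 against 2.71, 6.62, 5.64 and 2.62. This is partly set by the gate and was not tested. Defining markers of immune, stromal and endothelial cells were low in both states, with Ptprc at most 1.89 CPM, Cd3e at most 1.77, Col1a1 at most 4.80 and Pecam1 at most 2.60 CPM, and the macrophage gene C1qa at most 11.3 CPM. Red blood cell transcripts were high in ApcMin replicate 1, where Hbb-bs, a hemoglobin chain, was at 343 CPM in positive and 354 CPM in negative cells, against at most 17.0 CPM in the other libraries.

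For the comparison of the states, UMIs were summed per library and state, with Msx1 left out, and tested within library by the quasi-likelihood test of edgeR, with p-values adjusted by Benjamini-Hochberg at 0.05. Of 11941 genes tested, 130 were higher in Msx1-positive cells (1.09% of genes tested) and 353 were lower (2.96%), so 4.04% were called in either direction. The direction was the same in all 4 libraries for 116 of the 130 and 336 of the 353. In VApcMinL replicate 1, genes with 0 UMIs in both states were scored as rises, as for the called falls Defa34, Gm15293 and Defa21. For such genes these counts do not measure a shared direction. Over all 11941 genes, called or not, the states did not overlap across libraries for 147 higher and 229 lower genes. Of these, 22 were among the 130 and 117 among the 353. More genes fell than rose by a large amount, since 130 genes fell by more than 1 on the log2 scale and 46 by more than 2, while 51 rose by more than 1. The median log2 change was 0.82 among genes called higher and -0.76 among genes called lower, so the typical sizes were similar. The median log2 change over all genes tested was 0.01. Among single libraries, leaving out ApcMin replicate 2 changed the count most, to 132. Without VApcMinL replicate 2, the library with the most positive cells, 291 genes were called.

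**Figure D2:**
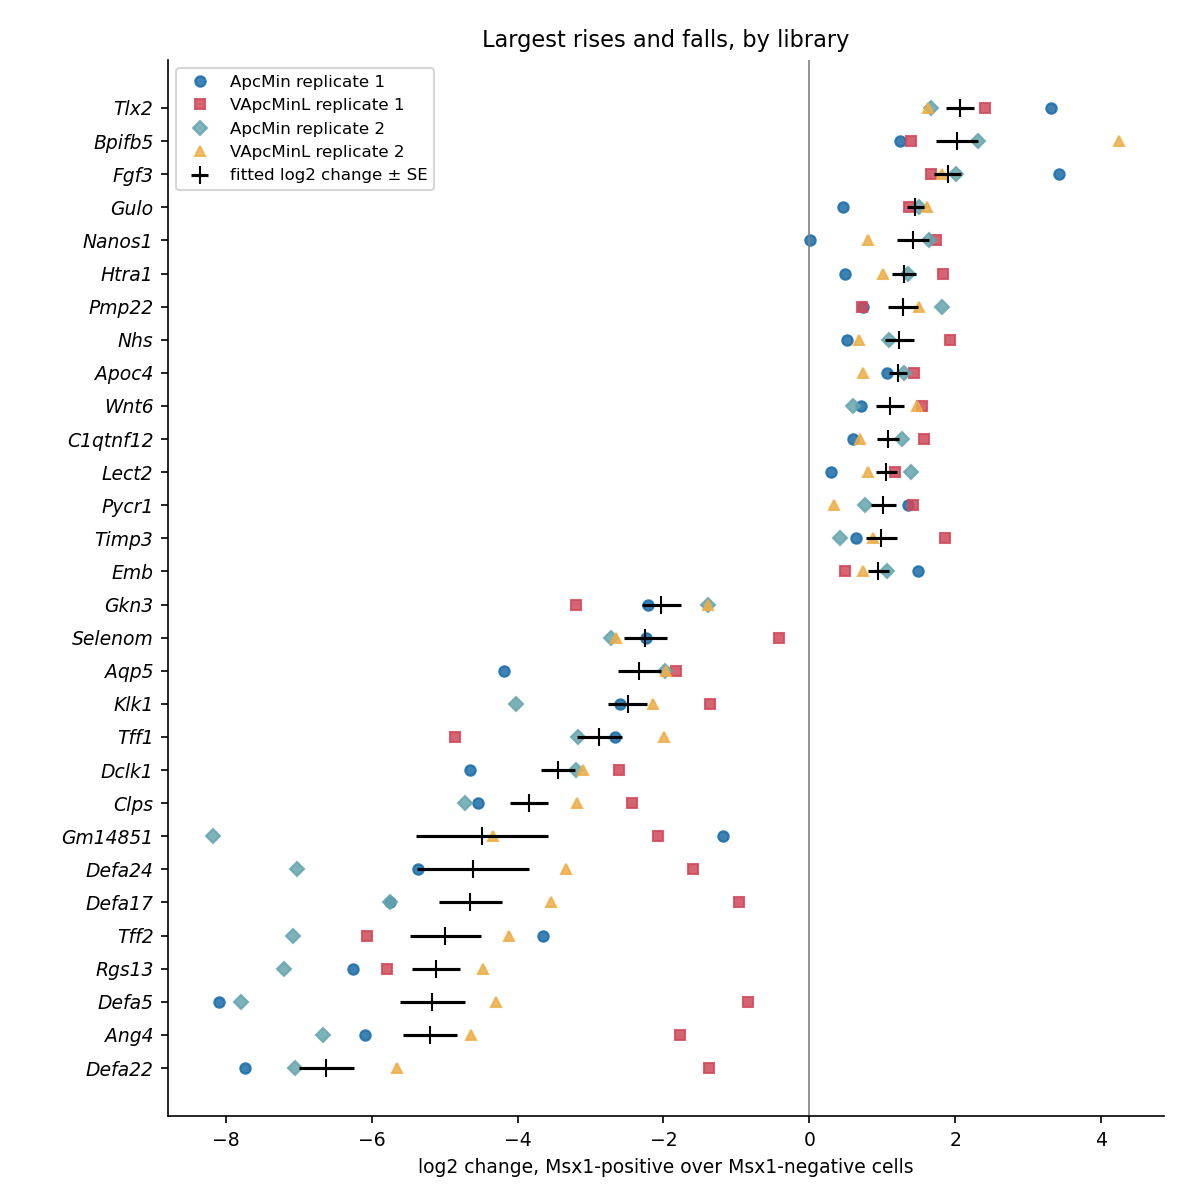
Log2 change of Msx1-positive over Msx1-negative cells for the 15 largest rises and 15 largest falls with 1 direction in all libraries, with a symbol for each library and a cross with SE bars for the fitted change. Bpifb5 reaches 4.24 in VApcMinL replicate 2, where negative cells held 0.73 CPM. Defa22 runs from -1.38 in VApcMinL replicate 1, on 0 against 2 UMIs in positive against negative cells, to -7.73 in ApcMin replicate 1.

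Genes of stomach mucus and gland cells fell as a group. Of 15 stomach-type genes tested, 10 fell, 0 rose and 5 did not pass the test, with a median log2 change of -1.16 for the list. The fall was spread over Tff2 and Tff1, small mucus-stabilizing peptides, the gastrokines Gkn3 and Gkn1, the gland mucin Muc6, the water channel Aqp5, the junction proteins Cldn18 and Vsig1, and the proteases Ctse and Pgc. Gkn2, Anxa10, Psca, Atp4a and Muc5ac were not called.

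Tff2 (chromosome 17) was at 13.1, 10.6, 9.13 and 11.99 CPM in the Msx1-positive cells of replicates 1 of ApcMin and VApcMinL and replicates 2 of ApcMin and VApcMinL, the order kept from here on, and at 164, 692, 1243 and 209 CPM in the negative cells. Positive cells were near 1 low level in every library, while negative cells varied between libraries, and the groups did not overlap. The log2 change was -4.99 ± 0.49 (SE, n = 4 library pairs), with an adjusted p of 0.00197 by the edgeR test.

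Gkn3, a gastrokine of the mouse stomach, was at 396, 407, 578 and 448 CPM in positive and 1817, 3602, 1489 and 1155 CPM in negative cells. Negative cells were again higher in each library with no overlap, and the log2 change was -2.03 ± 0.27. Tff1 was at 27.1, 11.8, 9.93 and 11.4 CPM in positive and 170, 335, 89.8 and 45.4 CPM in negative cells, a log2 change of -2.88 ± 0.31. Aqp5 was at 6.67, 60.8, 55.2 and 18.5 CPM in positive and 123, 207, 216 and 71.9 CPM in negative cells, a log2 change of -2.33 ± 0.30 that was largest in ApcMin replicate 1. Muc6, the mucin of stomach gland cells, fell by about the same amount in every library, between -1.34 and -1.02, and its fitted log2 change was -1.16 ± 0.07. The aspartic protease Ctse, at 314 to 385 CPM in positive and 438 to 589 CPM in negative cells, fell by 0.54 on the log2 scale.

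The fall was also seen in the median cell for a sum of 5 stomach-type genes. Gkn3 was the largest part of this sum in negative cells, at 1813 of 2422, 3593 of 5236, 1486 of 3299 and 1153 of 1688 CPM. The summed values below therefore do not show the fall of each gene. In the median cell the sum of Tff2, Muc6, Gkn3, Aqp5 and Tff1 was 1.43, 2.89, 2.18 and 1.46 UMIs per 10000 in positive cells. It was 10.8, 19.4, 5.88 and 7.39 in negative cells. Between depth-matched cells 9 of 15 stomach-type genes fell, and with cells thinned to 10000 UMIs and states set anew 9 of 13. Among cells with no Mki67 or Top2a UMI, where fewer cells remained, 1 of 14 fell and the list median was -2.09. Within VApcMinL replicate 2, the summed level of the 5 genes was 659 CPM in positive and 1647 CPM in negative cells among Xist-only cells, and 588 and 1670 CPM among Y-only cells, so the difference was present among Xist-only and among Y-only cells.

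Crypt base stem cell genes moved in both directions, and of 17 tested 6 fell and 2 rose. Prom1, a membrane glycoprotein of stem and progenitor cells, was at 182, 109, 146 and 206 CPM in Msx1-positive and 315, 379, 321 and 302 CPM in negative cells. The groups did not overlap, and Prom1 fell by 1.07 ± 0.17 on the log2 scale. Smoc2, a secreted matrix protein of crypt base cells, was at 22.4, 5.90, 16.1 and 26.4 CPM in positive and 63.8, 45.8, 48.7 and 42.9 CPM in negative cells, and fell by 1.39 ± 0.23. The glycoprotein Clca3b (-1.01), the BMP co-receptor Rgmb (-0.92) and the ion cotransporter Slc12a2 (-0.72) also fell, and the sixth was Gkn3, which the list shares with the stomach-type genes.

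The stem cell receptor Lgr5 was at 10.1, 66.7, 69.9 and 29.0 CPM in positive and 22.3, 63.3, 88.1 and 54.6 CPM in negative cells, and the groups overlapped. Its log2 change of -0.56 ± 0.16 did not pass the edgeR test (adjusted p = 0.0981), nor did that of Ascl2 (-0.19) or Olfm4 (-0.93). Of the rises, Axin2 is also a Wnt feedback gene, and the cholesterol esterifying enzyme Soat1 rose by 0.28. The crypt base count rested on ApcMin replicate 2, without which 2 of 17 fell and 0 rose.

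Among 25 Wnt pathway feedback and target genes tested, 4 rose and 1 fell, and the list median was 0.23. Axin2, which promotes beta-catenin degradation and is a direct Wnt target, was at 94.05, 187, 179 and 108 CPM in positive and 66.4, 83.4, 105 and 75.0 CPM in negative cells of the libraries in the same order. It was higher in positive cells within every library although the groups overlapped across libraries, with a log2 change of 0.71 ± 0.10 and an adjusted p of 0.00808 (edgeR). Wif1, a secreted inhibitor that binds Wnt ligands, was at 9.95, 398, 270 and 28.7 CPM in positive and 10.5, 143, 104 and 5.68 CPM in negative cells. It rose by 1.44 ± 0.21 but not in ApcMin replicate 1, where the change was -0.10. The ligand Wnt6 rose by 1.11 ± 0.19 and the cell cycle regulator Ccnd1 by 0.40 ± 0.07.

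Cd44, an adhesion receptor, was at 119, 90.3, 102 and 105 CPM in positive and 151, 150, 132 and 141 CPM in negative cells, with no overlap, and fell by 0.49 ± 0.08. Tcf7 (0.66), Tnfrsf19 (0.71), Dkk2 (0.99), Znrf3 (0.61) and Sp5 (0.47) had positive log2 changes that did not pass the test, and Rnf43 (0.02) and Myc (0.05) were near 0. Lef1 had a log2 change of 0.57 ± 0.19 that did not pass the test (adjusted p = 0.146, edgeR). Without ApcMin replicate 2, 1 of 24 rose and 0 fell.

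BMP genes were tested because Msx1 is a classical BMP target, and 4 of 17 rose and 0 fell. Id1, an inhibitor of bHLH transcription factors, was at 712, 725, 657 and 684 CPM in positive and 601, 582, 563 and 538 CPM in negative cells. The groups did not overlap, and the rise of 0.25 ± 0.05 on the log2 scale was small. Id3 rose by 0.35 ± 0.08. Smad7, an inhibitor of BMP and TGF-beta receptors, was at 74.9, 147, 275 and 148 CPM in positive and 60.3, 78.7, 179 and 108 CPM in negative cells and rose by 0.55 ± 0.09. Smad6, the related inhibitor of BMP signalling, rose by 0.62 ± 0.13.

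Of the ligands, Bmp2 (-0.50) and Bmp7 (0.16) were not called, and Bmp4 lay below the filter at 0 to 3.77 CPM in every library and state. Msx2, the nearest relative of Msx1, was also below the filter at 0 to 1.77 CPM, and 0 of 8 Msx and Dlx homeobox genes, Msx1 left out, could be tested. In the median cell the 5 BMP target genes Id1, Id2, Id3, Smad6 and Smad7 summed to 17.4, 22.6, 18.7 and 17.0 UMIs per 10000 in positive and 14.1, 15.4, 14.4 and 12.3 in negative cells. The calls depended on single libraries, since 0 of 16 BMP genes rose without ApcMin replicate 2. The count was 1 of 16 without VApcMinL replicate 2 and 2 of 19 without VApcMinL replicate 1. Between depth-matched cells 3 of 15 rose, and with cells thinned and states set anew 1 of 13. Among cells with no Mki67 or Top2a UMI, 1 of 14 rose.

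**Figure D3:**
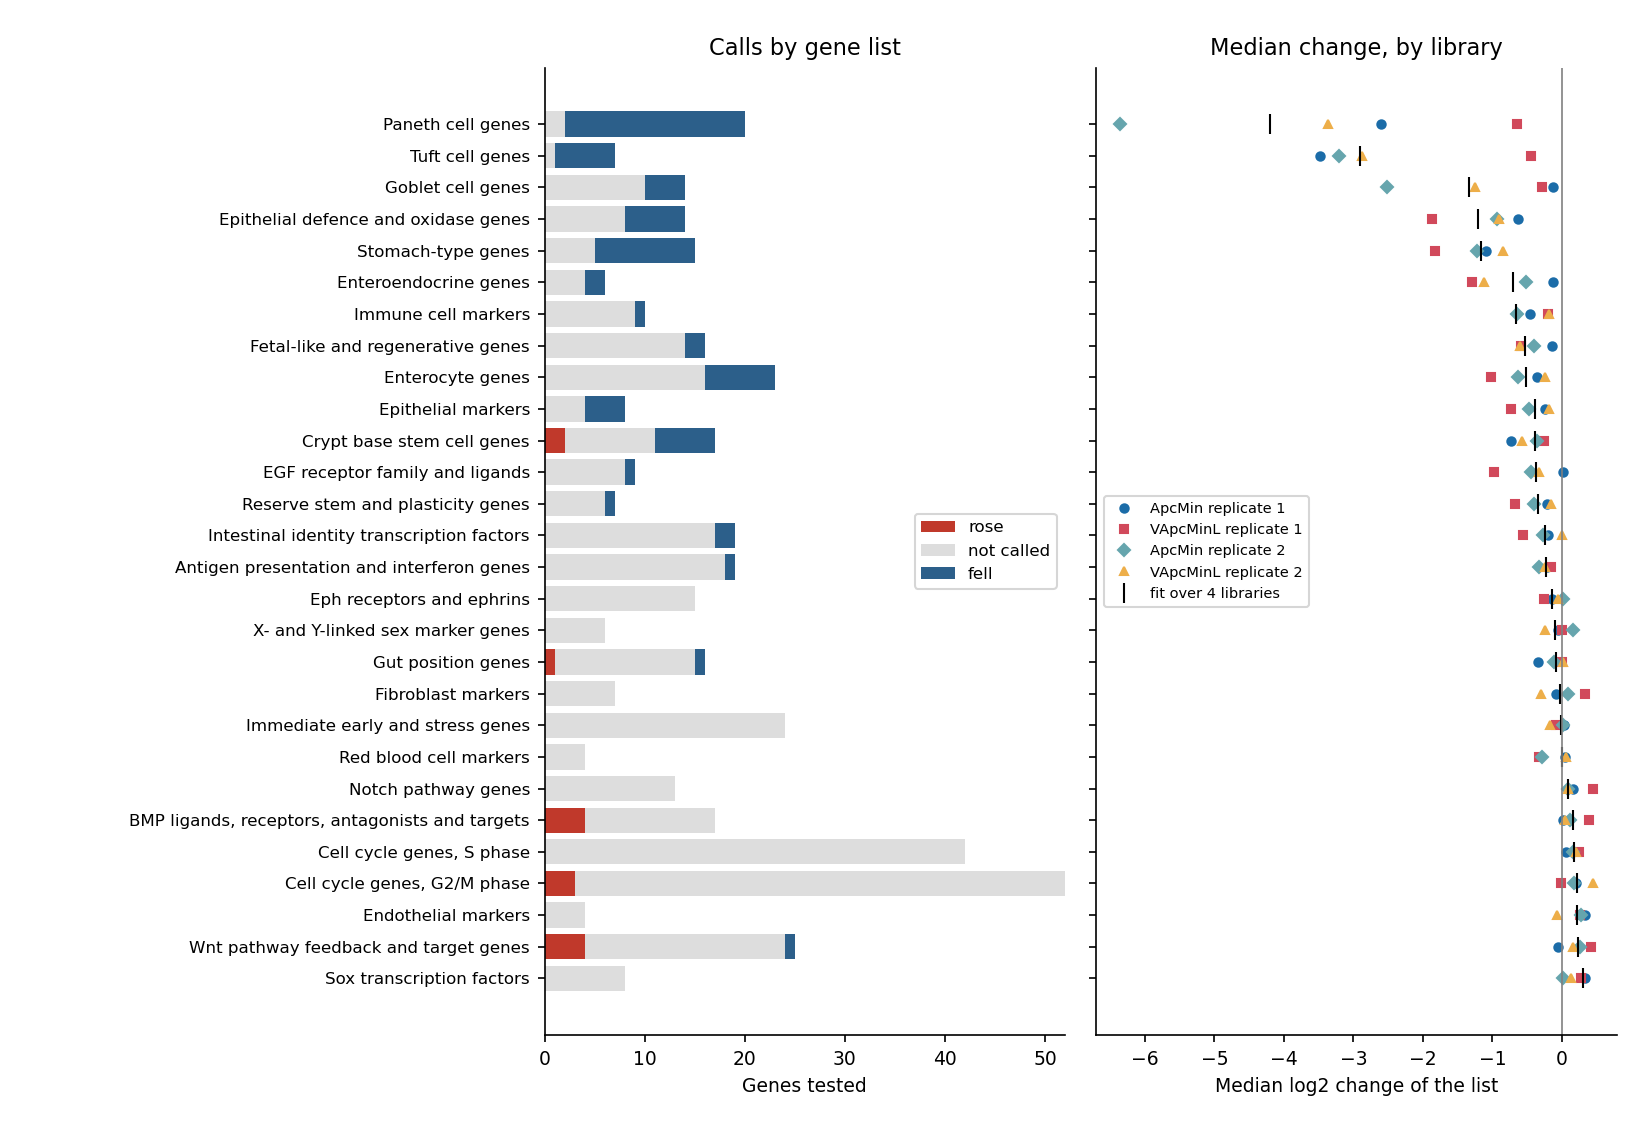
Left, the number of tested genes of each list that rose, fell or were not called in Msx1-positive over Msx1-negative cells. Right, the median log2 change of each list, per library (symbols) and fitted (line), from -4.20 for Paneth cell genes to 0.30 for Sox factors.

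Many of the 15 largest rises were more abundant in some libraries than in others. Tlx2, a homeobox factor of the enteric nervous system, was at 1.38, 92.1, 43.7 and 1.74 CPM in positive and 0, 16.5, 13.4 and 0.437 CPM in negative cells. It was higher in positive cells in each library, and rose by 2.06 ± 0.19. Fgf3, a secreted growth factor, was at 1.51, 61.4, 36.3 and 0.979 CPM in positive and 0, 18.5, 8.71 and 0.146 CPM in negative cells, and rose by 1.90 ± 0.18. Both genes were more abundant in VApcMinL replicate 1 and ApcMin replicate 2 than in the other libraries. In ApcMin replicate 1 and VApcMinL replicate 2 both were at or near 0 in negative cells, so the direction there rests on few UMIs. Fitted changes of libraries at 0 depend on the prior count.

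The same pattern held for Bpifb5, a member of the BPI fold family, at 17.0, 868, 899 and 17.2 CPM in positive and 6.99, 317, 177 and 0.728 CPM in negative cells. Gulo, an enzyme of vitamin C synthesis, was at 1.89, 86.2, 87.95 and 4.45 CPM in positive and 1.31, 32.0, 30.3 and 1.31 CPM in negative cells and rose by 1.45 ± 0.12. Htra1, a secreted serine protease, was at 34.2, 287, 173 and 36.0 CPM in positive and 24.0, 77.8, 66.3 and 17.6 CPM in negative cells. The libraries that were high in these genes were those with the smaller shares of Msx1-positive cells. Nanos1 (1.42), Pmp22 (1.28), Nhs (1.23), Apoc4 (1.22), C1qtnf12 (1.08), Lect2 (1.06), Pycr1 (1.01), Timp3 (0.99) and Emb (0.95) completed the list with Wnt6. Hoxb9, a posterior homeobox gene, rose by 1.78 ± 0.30 but had 0 CPM in both states of the version 2 kit libraries.

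The promoter of Msx1 is shown with those of 3 of the largest rises, which were picked as examples because they hold the TCF/LEF core motif, since Wnt feedback genes were among the rises. The windows run from 250 bases before to 50 after the start site (RefSeq, GRCm38.p6), and capitals mark CTTTGA or its reverse complement TCAAAG. The windows are chr5:37824536-37824835 (minus strand) for Msx1, chr7:144838362-144838661 (plus strand) for Fgf3, chr7:19681411-19681710 (minus strand) for Apoc4 and chr13:56548489-56548788 (minus strand) for Lect2.
Msx1: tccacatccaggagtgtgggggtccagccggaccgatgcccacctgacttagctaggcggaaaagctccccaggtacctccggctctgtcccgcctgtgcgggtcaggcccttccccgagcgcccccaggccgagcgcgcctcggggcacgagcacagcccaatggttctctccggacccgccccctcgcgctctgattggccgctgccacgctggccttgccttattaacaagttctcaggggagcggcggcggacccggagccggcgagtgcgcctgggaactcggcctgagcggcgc
Fgf3: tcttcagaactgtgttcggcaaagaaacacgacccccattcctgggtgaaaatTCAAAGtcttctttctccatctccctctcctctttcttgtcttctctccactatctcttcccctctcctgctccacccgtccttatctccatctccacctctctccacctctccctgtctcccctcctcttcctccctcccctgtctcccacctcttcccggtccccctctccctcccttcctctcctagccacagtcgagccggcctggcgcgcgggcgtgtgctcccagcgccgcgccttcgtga
Apoc4: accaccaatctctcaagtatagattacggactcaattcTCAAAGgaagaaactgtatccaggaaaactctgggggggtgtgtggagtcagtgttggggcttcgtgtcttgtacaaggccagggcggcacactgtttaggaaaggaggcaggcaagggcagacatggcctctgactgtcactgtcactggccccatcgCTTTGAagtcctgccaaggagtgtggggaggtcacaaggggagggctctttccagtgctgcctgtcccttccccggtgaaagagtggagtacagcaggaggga
Lect2: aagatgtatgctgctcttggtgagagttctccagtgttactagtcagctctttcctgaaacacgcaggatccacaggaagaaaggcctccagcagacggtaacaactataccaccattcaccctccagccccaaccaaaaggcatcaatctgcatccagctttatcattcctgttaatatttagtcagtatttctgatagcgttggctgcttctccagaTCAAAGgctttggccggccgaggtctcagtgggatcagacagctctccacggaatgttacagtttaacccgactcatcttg

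The Msx1 window held 0 matches, Fgf3 held 1 at position -197 from the start site, Lect2 held 1 at -31 and Apoc4 held 2. The windows of the Wnt pathway genes Axin2, Wif1 and Wnt6, which rose, held 0. Of the 15 largest rises 12 had a window in the table, and 5 of these 12 held the motif. Over all windows the motif on either strand was found in 17 of 128 windows of genes called higher (13.3%) and 55 of 342 windows of genes called lower (16.1%), against 11.9% of windows of genes tested and 16.003% of all 32851 windows. The homeodomain core TAATTG or CAATTA was found in 3.13% and 5.56% of windows of genes called higher and lower, and 4.67% of windows of genes tested. The shares are a description, and no match says only that these letters are not in the window.

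Paneth cell genes, which encode the antimicrobial products of granule-filled crypt base cells, were among the largest falls. Of 20 tested, 18 fell and the list median was -4.20. Defa22, an alpha-defensin, was at 11.8, 0, 1.99 and 35.8 CPM in positive and 2517, 0.26, 283 and 1788 CPM in negative cells, a log2 change of -6.62 ± 0.38. Ang4, an antimicrobial ribonuclease, was at 4.15, 4.72, 1.79 and 17.1 CPM in positive and 290, 15.9, 197 and 423 CPM in negative cells, a change of -5.20 ± 0.37. In VApcMinL replicate 1 both states held few of these transcripts. Alpha-defensin genes are near-identical copies among which reads may be split, so single members are uncertain, and their sum was 354, 51.2, 68.5 and 806 CPM in positive against 21819, 116, 9263 and 11810 CPM in negative cells.

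The Paneth cell transcripts lay in very few negative cells. The 5% of negative cells with the most, which were 5, 17, 10 and 14 cells, held 96.5%, 55.8%, 93.9% and 94.9% of all UMIs of the 19 Paneth cell genes summed. The median cell held 6.34, 2.84, 3.80 and 4.50 such UMIs per 10000 in positive and 6.93, 3.15, 4.55 and 4.59 in negative cells, so the median cells of the states were close. Over 30 per 10000 were 9 of 280, 5 of 64, 9 of 97 and 101 of 1461 positive cells and 10 of 99, 19 of 326, 27 of 197 and 34 of 277 negative cells. With cells over a level of Paneth, tuft, goblet, enteroendocrine or enterocyte genes removed, 2 of 17 Paneth cell genes fell with a median of -0.16, while 10 of 15 stomach-type genes fell with a median of -1.25. Without ApcMin replicate 1, 12 of 20 Paneth cell genes fell, and without VApcMinL replicate 2, 10 of 17. Between depth-matched cells 9 of 17 fell with a median of -1.75. With cells thinned and states set anew 9 of 13 fell with a median of -1.14.

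**Figure D4:**
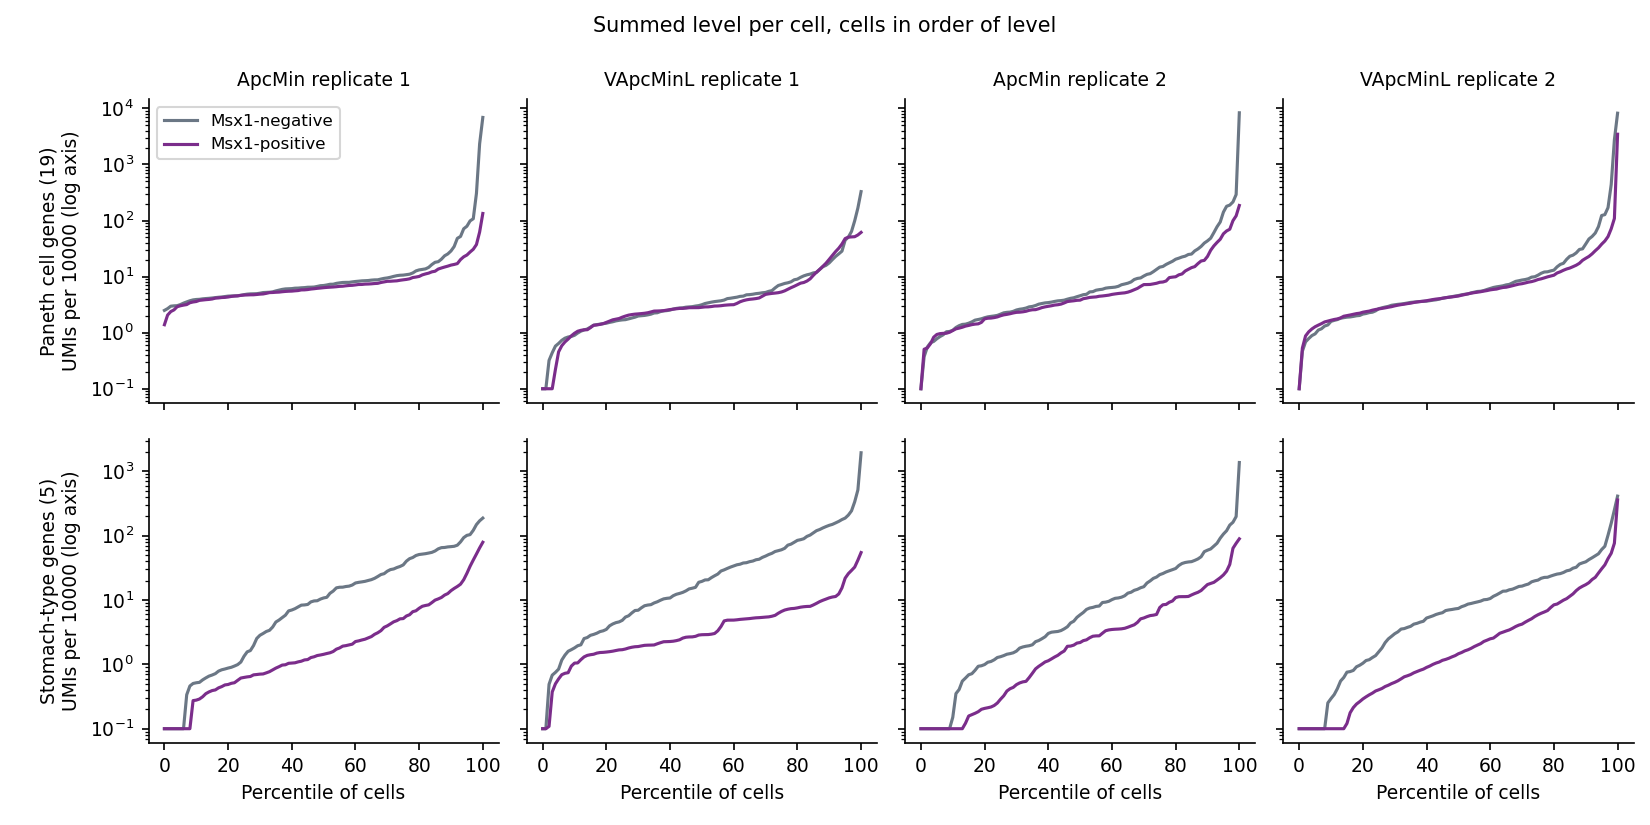
Summed level per cell (UMIs per 10000, log axis, cells at 0 drawn at 0.1) against the percentile of cells, for 19 Paneth cell genes (top) and 5 stomach-type genes (bottom), with Msx1-negative cells in grey and Msx1-positive cells in purple. The Paneth curves are close at the median cell. Over 30 per 10000 were 10.1%, 5.83%, 13.7% and 12.3% of negative and 3.21%, 7.81%, 9.28% and 6.91% of positive cells. The highest negative cells reach 6885, 327, 8331 and 8201. The stomach-type curves, of which Gkn3 is the largest part in summed negative cells, are apart over most cells.

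Tuft cell genes also fell, but their transcripts were less confined to a few cells. The 5% of negative cells with the most held 63.2%, 24.8%, 51.8% and 56.1% of the tuft UMIs. The median cell held 0.81, 1.10, 1.22 and 1.20 tuft UMIs per 10000 in positive and 1.10, 1.47, 1.45 and 1.49 in negative cells. Of 7 tested 6 fell, with a list median of -2.90. Dclk1, a kinase that marks tuft cells, was at 1.26, 1.77, 3.38 and 3.43 CPM in positive and 35.0, 11.2, 32.1 and 30.3 CPM in negative cells, with no overlap, and fell by 3.45 ± 0.23. Rgs13, a regulator of G-protein signalling, was at 0.378, 0, 0 and 1.53 CPM in positive and 40.2, 8.86, 27.1 and 37.1 CPM in negative cells. Cells over 10 tuft UMIs per 10000 numbered 0, 0, 0 and 6 among positive and 2, 1, 5 and 13 among negative cells, and with differentiated-type cells removed 1 of 5 tuft genes fell.

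Other differentiated cell types had fewer falls. Of 14 goblet cell genes tested 4 fell and 0 rose. Agr2, a disulfide isomerase of mucus-secreting cells, was at 497, 266, 421 and 639 CPM in positive and 1085, 2280, 1786 and 1557 CPM in negative cells, with no overlap, and fell by 1.90 ± 0.28. Spdef, the goblet cell transcription factor, fell by 1.38 ± 0.17, whereas the goblet mucin Muc2 had a change of -1.71 ± 0.44 that did not pass the test (adjusted p = 0.0707, edgeR). Klk1 (-2.49) and Creb3l1 (-1.32) also fell.

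Of 23 enterocyte genes 7 fell, among them the disaccharidases Sis (-0.83) and Lct (-0.77) and the fatty acid binding protein Fabp1 (-0.65). Of 6 enteroendocrine genes 2 fell, the granule protein Chgb (-1.72) and the prohormone processing enzyme Cpe (-0.76). Of 14 epithelial defence and oxidase genes 6 fell, among them Noxo1 (-1.52), an organizer of the epithelial NADPH oxidase, the lectins Reg4 (-2.02) and Reg3b (-1.25), and Pigr (-1.24), which carries IgA across the epithelium. Reg3b and Reg3g are also counted among the Paneth cell genes. No member of these lists rose. The enterocyte count was not stable, since 0 of 23 fell between depth-matched cells and 0 at a mitochondrial limit of 10%. Without ApcMin replicate 2, 1 enterocyte gene fell, and without ApcMin replicate 1, 2 fell. Sis was higher in positive cells of VApcMinL replicate 1, by 0.46 on the log2 scale. The enteroendocrine count was 0 of 2 in depth-matched cells, and without ApcMin replicate 2, 3 defence genes fell.

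Changes of general epithelial genes were smaller, and few fetal-like genes passed the test. Of 8 epithelial markers 4 fell, the villus protein Vil1, the keratin Krt8, the keratin Krt18, at 1451 to 1724 CPM in positive and 1953 to 2256 CPM in negative cells, by 0.43 ± 0.05, and the adhesion molecule Epcam by 0.41 ± 0.08. Of 16 fetal-like and regenerative genes 2 fell. Clu, a secreted chaperone of regenerating epithelium, was at 1756, 2939, 2832 and 1877 CPM in positive and 3192, 4505, 3682 and 2808 CPM in negative cells and fell by 0.64 ± 0.07. Ly6d fell by 0.72. Of 19 intestinal identity transcription factors 2 fell, Elf3 (-0.36) and Onecut2 (-0.38), and of 9 EGF receptor family genes Erbb3 fell (-0.62). Of 7 reserve stem genes 1 fell, again Clu, and of 19 antigen presentation genes 1 fell, B2m (-0.32). Without ApcMin replicate 2, 0 identity factors, 0 EGF receptor family genes, 0 antigen presentation genes and 1 epithelial marker fell.

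Few cell cycle genes passed the test, although 41 of 42 S phase genes and 52 of 52 G2/M genes had a positive fitted change, with medians of 0.18 and 0.21. None of 42 S phase genes was called by edgeR, DESeq2 or limma-voom, with 15 at an unadjusted p under 0.05. Of 52 G2/M genes 3 rose, the spindle factors Tpx2 (0.47) and Hmmr (0.50) and the kinase subunit Cks1b (0.30), with 22 at an unadjusted p under 0.05. In the median cell, G2/M genes summed to 31.8, 14.6, 21.3 and 28.5 UMIs per 10000 in positive and 15.8, 12.98, 14.4 and 14.3 in negative cells. Between depth-matched cells edgeR called 0 genes of either list, and the medians were -0.02 for S phase and 0.08 for G2/M. Without ApcMin replicate 2 or without VApcMinL replicate 2, 0 G2/M genes rose. Mki67 had a log2 change of 0.15 that did not pass the test. The edgeR test also called 0 of 13 Notch pathway genes, 15 Eph receptors and ephrins, 24 immediate early genes and 8 Sox factors, with 4, 4, 5 and 5 at an unadjusted p under 0.05. DESeq2 called 1 Eph or ephrin gene, limma-voom called 1 Notch gene, and both called 0 in the other lists. Among markers of other cell types 1 of 10 immune genes fell, the mast cell protease Mcpt2 (-0.84), with summed immune levels of 582, 241, 38.8 and 32.7 CPM in positive and 603, 224, 99.7 and 47.1 CPM in negative cells. By edgeR 0 of 7 fibroblast, 0 of 4 endothelial and 0 of 4 red blood cell genes were called, with 1, 2 and 0 at an unadjusted p under 0.05, and limma-voom called 1 endothelial gene and DESeq2 0. The part of these cells in the results was not tested. Of 34 genes that the study examined, largely in adenomas of another mouse line, 32 were tested, 2 rose (Axin2 and Wif1) and 4 fell (Prom1, Cd44, Smoc2 and Lyz1). Without ApcMin replicate 2, 1 rose and 0 fell.

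The levels of some genes changed in order with the number of Msx1 UMIs. This is a description because the bins use the gene of the rule and differ in depth. Median depth ran from 20333 to 32734 UMIs over the bins of ApcMin replicate 1 and from 21319 to 38886.5 over those of VApcMinL replicate 2. Prom1 was at 315, 210, 199, 180 and 157 CPM in cells of ApcMin replicate 1 with 0, 1, 2 to 4, 5 to 9 and 10 or more Msx1 UMIs. The same bins of VApcMinL replicate 2 held 302, 269, 242, 217 and 175 CPM. Prom1 thus stood lower at each higher bin in these libraries and in ApcMin replicate 2, at 321, 202, 191, 131 and 94.6 CPM. Gkn3 was at 1153, 868, 675, 430 and 313 CPM over the bins of VApcMinL replicate 2 and at 1813 and 461 CPM in cells of ApcMin replicate 1 with 0 and 1 Msx1 UMI. Axin2 was at 74.8, 78.4, 87.4, 103 and 124 CPM over the bins of VApcMinL replicate 2. Cells with a single Msx1 UMI were thus between the states or near the positive cells for these genes. Other genes followed no such order. Bpifb5 was at 6.98, 17.4, 21.3, 24.9 and 1.37 CPM over the bins of ApcMin replicate 1. Over those of VApcMinL replicate 2 it was at 0.73, 14.7, 23.7, 2.90 and 21.7 CPM.

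**Figure D5:**
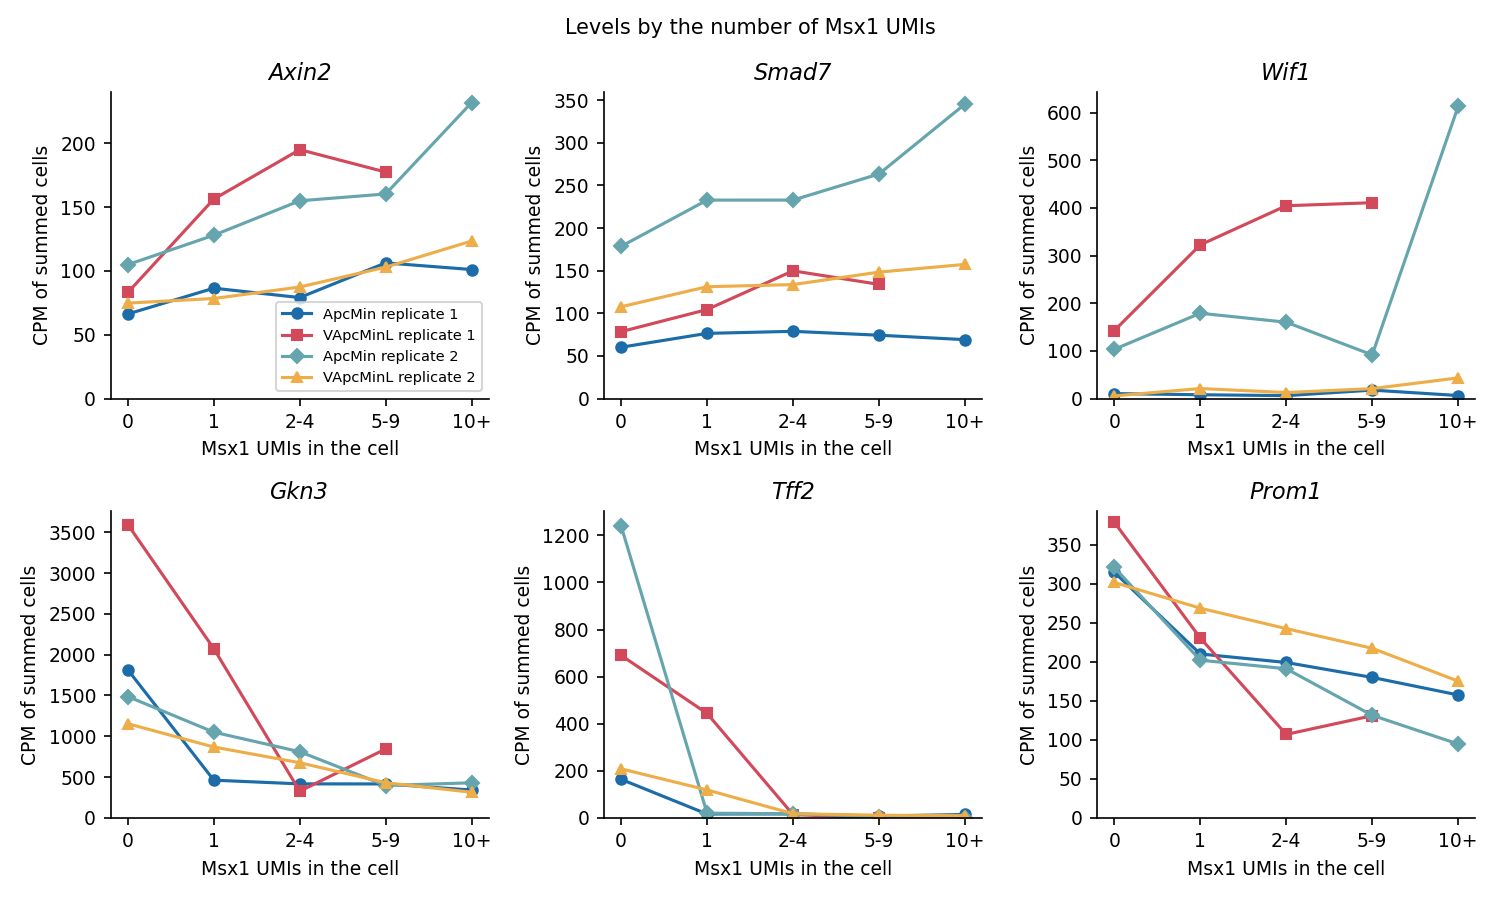
CPM of 6 genes in the summed cells of each bin of Msx1 UMIs, with a line for each library and bins of fewer than 10 cells left out. Prom1 and Gkn3 are highest in the bin of 0 Msx1 UMIs in every library, and Axin2 is lowest there.

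Lyz1, the lysozyme of Paneth cells, was also compared as a share of cells, because the study examines it beside Msx1. Its summed level was 167, 200, 139 and 430 CPM in positive and 580, 212, 811 and 1538 CPM in negative cells, a log2 change of -1.64 ± 0.31. Each cell was thinned to 10000 UMIs after its state was set. Lyz1 was then found in 32.5%, 18.8%, 23.7% and 42.8% of positive and 40.4%, 23.6%, 25.9% and 42.2% of negative cells. Before thinning the shares were 51.4%, 32.8%, 37.1% and 65.98% of positive and 55.6%, 36.2%, 46.7% and 58.8% of negative cells. The mean difference over libraries was -3.60 percentage points (SD 3.62, n = 4), lower in 3 of 4, with an exact two-sided sign-flip permutation p of 0.25, and the smallest p this design allows is 2 in 16. Enterocyte-type cells outside the gate, which should lack Lyz1, held it in 15.8%, 14.2%, 9.25% and 20.4% after the same thinning, at median depths of 13657, 14113, 28696 and 17986 UMIs, so part of each share is background. In VApcMinL replicate 2 the share and the summed level differed in sign, and no order is read from that share.

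The contrast of the Msx1 states was finally compared between genotypes and kits, with 2 libraries on each side. No gene differed between VApcMinL and ApcMin by the edgeR interaction test (0% of genes tested), while 161 had an unadjusted p under 0.05, DESeq2 called 0 and limma-voom 1. Between the kits 1 gene was called (0.00837%), Rgs5, a regulator of G-protein signalling of pericytes. Its log2 change was 0.48 and 0.64 in the version 2 libraries of ApcMin and VApcMinL and -2.87 and -3.06 in the version 3 libraries, a difference of -3.73 ± 0.29. It rested on 25 against 5, 65 against 182, 20 against 235 and 58 against 73 UMIs in positive against negative cells.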

How the data were processed

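Single-cell libraries from 4 samples, 2 per group, were analysed from the raw UMI counts that the authors deposited for every barcode. Per the submitters' processing notes these came from Cell Ranger 2.1.1 and were analysed with Seurat 3.1.1 on mm10 (GRCm38), and nothing was normalized before deposit. The file headers of the version 3 kit libraries name release 3.1.0 instead, and those files list 31053 genes against 27998. The 27514 genes common to the tables were used, and the others held at most 0.5684% of a library's UMIs. Cells were gated, UMIs summed per library and state without Msx1, and genes kept by filterByExpr at a minimum count of 10. The 8 profiles were fitted in edgeR 4.0.16 (R 4.3.3, TMM, quasi-likelihood) with library as a block and Benjamini-Hochberg adjustment at 0.05. Both states of a library come from the same cell suspension, and their deviations correlated at 0.654 to 0.773 with their own library, against at most 0.233 with another, over 11941 genes, which are not independent replicates. Eligible rises and falls had 1 direction in all libraries and a mean over libraries of at least 20 CPM in the higher state. The named genes are the 15 largest of each, the study's panel, and up to 2 called members of each list in each direction. Other members are given as counts or were chosen after their values were seen. The members, lists and rules were chosen with earlier results of these data known. Where the labels do not tie libraries to separate mice, p-values measure the spread between these libraries only. Prox1, Notum and Nkd1 were not tested. Doublet scores came from Scrublet in scanpy 1.11.5, and high scores were removed only as an alternative. Scripts were tested on simulated data. Other alternatives were limma-voom (limma 3.58.1) and DESeq2 1.42.0, other gates and depths, and leaving out libraries. CPM of single genes by state exclude Msx1 and genes outside the 27514 from the total. CPM of summed gene groups and their parts, of Msx1 bins, and of Xist, Hbb-bs and defining markers of other lineages use all UMIs of the cells. The precision of each value is limited by 4 libraries.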

Additional observations from a re-analysis of the deposited data

Results flagged for a closer look

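In 3 of 86 genes examined, 1 library stood apart from the other 3 in the log2 change between the states. Chance gives this in about 1 in 20 genes, or 4.3 of 86. Aqp5 was at -4.19 in ApcMin replicate 1 and between -1.98 and -1.82 elsewhere. Sis was at 0.46 in VApcMinL replicate 1 and between -1.01 and -0.78 elsewhere. Cpe was at -1.05 in ApcMin replicate 2 and between -0.65 and -0.62 elsewhere. Rgs5 differed between the kits by -3.73 ± 0.29 on the log2 scale (adjusted p = 0.0384, edgeR). Outside the adenoma gate, 2 or more Msx1 UMIs were found in 2.12% of barcodes with Epcam and no gate gene in ApcMin replicate 1 and in 4.04% in VApcMinL replicate 2, above the 0.141% and 0 of the other libraries. The causes were not tested.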

How the results depend on the processing

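The 483 calls came to between 329 and 579 under other Msx1 limits, a floor of 5000 UMIs, lower mitochondrial limits, stricter gates, removed doublet scores, removed differentiated-type cells or cells with a defining marker of another lineage, DESeq2, other size factors and kit 3 libraries alone. They came to 279 at a floor of 20000 UMIs, 132 with cells thinned and states set anew, and 317 with depth-matched cells. Without cells holding Mki67 or Top2a they were 50, and in barcodes of at least 3000 and under 10000 UMIs 2. They came to 742 with limma-voom, 1406 with no filter and 6 with no library block (unpaired). They were 55 in kit 2 libraries, 211 in ApcMin and 150 in VApcMinL alone. Leaving out 1 library gave 132 to 418 calls, the lowest without ApcMin replicate 2, where 34 of 59 tested called genes among those named lost their call. No gene differed between genotypes in the fit reported, and 3 did with positive cells from 1 UMI, 3 with cells thinned, 1 depth-matched, 2 without Mki67 or Top2a, 2 at a gate sum of 10, 1 with limma-voom, 65 with no filter and 4 to 26 leaving out 1 library. Between kits the 1 call became 3 from 3 Msx1 UMIs, 0 at floors of 5000 and 20000 UMIs, 6 thinned, 0 depth-matched, 0 without doublet scores, 0 with at least 3000 and under 10000 UMIs, 0 at a gate sum of 10, 3 with DESeq2, 83 with no filter and 3 to 27 leaving out 1 library. Directions turned for Ang4 (0.12, differentiated-type cells removed), Gm14851 (1.69, gate sum of 10), Sis (0.0071, gate sum of 10, and 0.026, kit 2), Elf3 (0.23) and Onecut2 (0.017) with at least 3000 and under 10000 UMIs, Mcpt2 (0.042, thinned) and the Lyz1 share (9.58 points, at least 3000 and under 10000 UMIs). Without 1 library the Lyz1 difference was -4.98 to -2.17 points. Removing all cells with other-lineage marker sums left no cells in ApcMin replicate 1 and gave no value. Removal of differentiated-type or defining-marker cells, the gate sum of 10 and the Lyz1 values without 1 library were chosen after seeing the data. Causes of these differences were not tested.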
